A study of Rattus norvegicus with 2 samples.

Results

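Apolipoproteins are the protein part of the particles that carry cholesterol and triglyceride through blood and lymph, and 9 genes of this system were followed here. They were Apoe, Apoc1, Apob, Apoa1, Apoa4 and Apoc3, which encode apolipoproteins, Vldlr and Scarb1, which encode receptors, and Lcat, which encodes a plasma enzyme. Members were chosen by name: all probe sets whose single gene symbol in the platform annotation is one of these names were taken, which gave 19 of the 8799 probe sets of the array. For the other 8 genes the rule names no measured value, but Apoe was selected on its measured signal intensity, which was higher in the portal hypertension pool, so its difference is described and supports nothing.

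The RNA came from small mesenteric arteries of the first and second branch order, the muscular vessels that feed the gut. In the portal hypertension group the portal vein had been partly tied before it enters the liver, and the other group had a sham operation. Each group was 1 pool of total RNA from 20 rats read on 1 Affymetrix RG_U34A array, and strain, age, sex and the time between operation and sampling are not named by the labels. A pool averages its rats, so the spread between animals is unknown, no test or p-value was possible, and 2 arrays set the limit of precision. RNA of whole vessels also leaves unsettled whether a lower signal means fewer cells of a type or less RNA per cell, since these cannot be told apart.

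Lipoproteins exchange their lipid through a few steps. Apolipoprotein B forms the frame of the triglyceride-rich particles made by liver and gut, lipoprotein lipase unloads their triglyceride in muscle and fat, and apolipoprotein E on the remnants is the ligand by which receptors of the low-density lipoprotein receptor family take them up. Apolipoprotein A-I collects cholesterol from cells into high-density lipoprotein, where the enzyme LCAT esterifies it and the receptor SR-BI removes it. Liver and intestine make most apolipoproteins, whereas apolipoprotein E is also made outside them, by macrophages, fat cells and smooth muscle cells.

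Apoe and Apoc1 lie next to each other on rat chromosome 1 in the RefSeq gene table, with Apoc4 and Apoc2 beyond Apoc1, and both were higher in the portal hypertension pool. The 250 bases before a start site of each gene are shown because of this shared position and direction. They are RefSeq sequences of the rat assembly GRCr8, on the minus strand, at chr1:88484700-88484949 for Apoe and chr1:88478306-88478555 for Apoc1. The table holds 3 start sites for Apoe and 2 for Apoc1, and the arrays do not show which were in use. Capitals mark each TATAA, and each GGGCGG, the GC box bound by Sp1-type factors, both searched on both strands and with no overlap between them.
Apoe: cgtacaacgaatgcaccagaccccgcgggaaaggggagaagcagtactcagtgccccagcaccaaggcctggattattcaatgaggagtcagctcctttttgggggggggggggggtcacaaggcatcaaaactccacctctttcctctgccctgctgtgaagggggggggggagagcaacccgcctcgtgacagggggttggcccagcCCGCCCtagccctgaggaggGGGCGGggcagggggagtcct
Apoc1: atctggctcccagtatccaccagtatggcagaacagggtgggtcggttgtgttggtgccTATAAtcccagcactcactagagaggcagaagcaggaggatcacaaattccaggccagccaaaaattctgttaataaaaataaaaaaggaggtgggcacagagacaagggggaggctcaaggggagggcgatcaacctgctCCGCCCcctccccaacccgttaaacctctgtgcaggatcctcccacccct
The Apoe window held 2 GC boxes, 41 and 21 bases before the start site and on opposite strands, and no complete TATAA. Another Apoe window in the table, chr1:88484521-88484770, overlaps it, holds both GC boxes and also a TATAA, 180 bases before its own start site and beginning on the last base of the window shown. The remaining Apoe window, chr1:88485817-88486066, held no GC box and no TATAA. The Apoc1 window held 1 GC box, 50 bases before its start site, and a TATAA 191 bases before it. The other Apoc1 window, chr1:88478221-88478470, held 1 GC box and no TATAA. Of all 33469 windows of this length in the table, 30.5% held a GC box and 24.0% a TATAA, so neither sets these genes apart. The table also has windows for Vldlr, Apoa4 and Lcat, with 3, 1 and 0 GC boxes.

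Signals are linear intensities as deposited. A floor of 330.9 intensity units, the 40th percentile of both arrays, stands in for detection calls, and any value under it was raised to it ahead of the log2 step. Of the 19 probe sets, 10 from 6 genes lay above the floor in both pools, 2 in 1 pool and 7 in neither. Ratios are portal hypertension over sham, and a gene's ratio is the median over its probe sets above the floor in at least 1 pool. Probe sets of the same gene scattered around their gene's mean with an SD of 0.30 on the log2 scale (1801 probe sets of 789 genes), which is the only error the data give and leaves out the rats. Probe sets differ in brightness, so the signals of different probe sets do not rank genes by amount of mRNA.

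Apoe was nearly 2-fold higher in the portal hypertension pool, Apoc1, Apob and Scarb1 were 1.40-fold to 1.43-fold higher (for Apoc1 a lower limit), and Vldlr, Lcat and Apoc3 differed little. Apoa1 was lower, and Apoa4 lay below the floor in both pools. Of the 8 genes with a value, 4 had ratios above 0 and 4 below, and 1, Apoe, was at least 1.5-fold higher, where 3.13% of 3351 genes were; this count includes the choice of Apoe and is not read further. On values limited by the floor, 0 of the 8 were called at least 1.5-fold lower, against 5.04% of all genes, but for Apoa1 the fold is only a lower limit and its deposited signals differ 1.69-fold. The median log2 ratio was 0.22 over the 8 genes and -0.05 without Apoe, against -0.02 over all genes with a value. Over all genes 105 were at least 1.5-fold higher and 169 lower, a balance that became 151 higher and 139 lower after quantile normalization and 138 higher and 145 lower after a loess trend was removed.

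Apoe, the remnant ligand, was bright on both of its probe sets. X04979_at had a signal of 27831 in the portal hypertension pool and 14496 in the sham pool, and S76779_s_at had 6955 in the portal hypertension pool and 3480 in the sham pool. Both moved alike, with log2 ratios of 0.941 and 0.999 that lie 0.06 apart. They read the same 2 pools, and Apoe was selected on this signal, so their likeness supports nothing. The gene's ratio was 1.96-fold, at rank 12 from the highest of the 3351 genes, which describes the value it was selected on. It lay between 0.94 and 0.98 on the log2 scale over 8 alternative settings, all of which reuse the same 2 arrays.

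Apoc1, whose protein hinders lipoprotein lipase and remnant uptake, had 1 probe set and a low signal. It was 472.1 in the portal hypertension pool and 327.9 in the sham pool, where it lay just under the floor. The pools therefore differed by at least 1.43-fold, with the portal hypertension pool higher, a bound that depends on the floor. Apoc4, the gene on its other side, was below the floor with 93.8 in the portal hypertension pool and 103.5 in the sham pool, and no probe set was named for Apoc2, the activator of lipoprotein lipase.

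**Figure D1:**
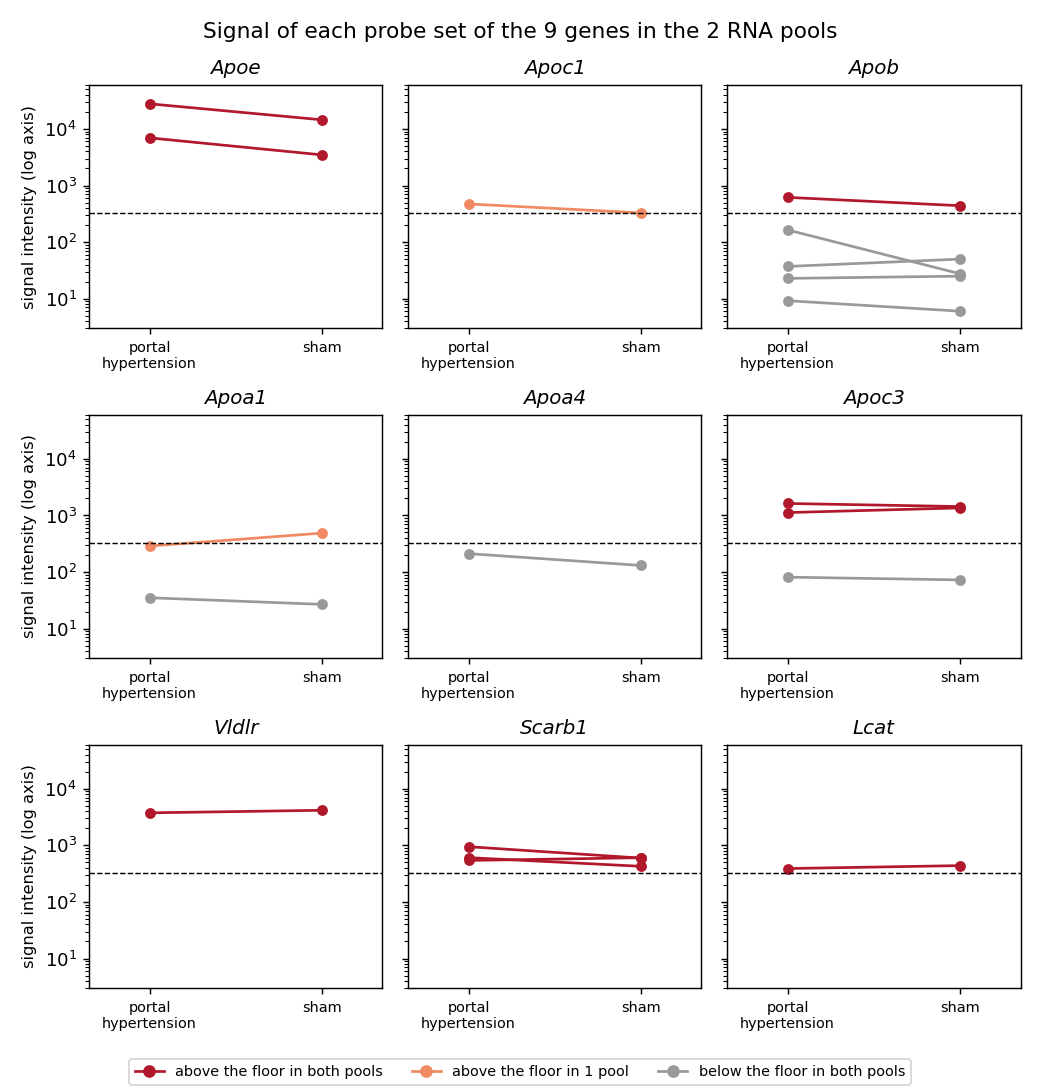
Signal intensity (log axis) of each probe set of the 9 genes in the portal hypertension pool and the sham pool, with a line joining the values of 1 probe set and the floor of 330.9 as a dashed line. Colours give the number of pools in which a probe set was above the floor; both Apoe probe sets lie far above it and are higher in the portal hypertension pool, while 4 of 5 Apob probe sets and the Apoa4 probe set lie below it in both.

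Of the 4 apolipoproteins made mainly by liver and intestine, Apob was above the floor in both pools on 1 of 5 probe sets, Apoc3 on 2 of 3, and Apoa1 and Apoa4 on none. Apob, the frame protein of chylomicrons, very-low-density and low-density lipoprotein, had on that probe set 617.3 in the portal hypertension pool, against 439.6 in the sham pool, a log2 ratio of 0.49. Its other 4 gave 164, 37.1, 22.8 and 9.2 in the portal hypertension pool and 27.5, 50, 25 and 6 in the sham pool, in matched order, all below the floor. The Apob value therefore rests on 1 probe set, and with no floor and an offset of 100 units over all 5 it came to 0.04.

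Apoa1, the main protein of high-density lipoprotein and the cofactor of LCAT, had 288 in the portal hypertension pool, below the floor, and 487.3 in the sham pool. That is at least 1.47-fold lower in the portal hypertension pool, and its log2 value was -0.76 when the 20th percentile served as floor. The other Apoa1 probe set had 35.1 in the portal hypertension pool and 26.8 in the sham pool, so it was below the floor and went the other way. Apoa4, a chylomicron protein of the intestine, had 211.4 in the portal hypertension pool and 130.6 in the sham pool.

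Apoc3, which slows triglyceride clearance and lies between Apoa1 and Apoa4 on chromosome 8 in the RefSeq table, was above the floor on 2 of its 3 probe sets, and these went opposite ways. J02596cds_at had 1628 in the portal hypertension pool and 1437.5 in the sham pool, and rc_AI169758_at had 1124.6 in the portal hypertension pool and 1359.7 in the sham pool. The log2 ratios of 0.18 and -0.27 both lie within the SD between probe sets, so no direction was settled. The third probe set was below the floor, with 81.2 in the portal hypertension pool and 72.5 in the sham pool.

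Of the receptors, Vldlr differed little and Scarb1 was higher on 2 of its 3 probe sets. Vldlr, which binds apolipoprotein E on triglyceride-rich particles in muscle, fat and endothelium, had 3762 in the portal hypertension pool and 4176 in the sham pool, a log2 ratio of -0.15. Scarb1, the gene of SR-BI, had 947.8 in the portal hypertension pool and 596.1 in the sham pool on AF071495_s_at, a log2 ratio of 0.67. On D89655_at it had 607.7 in the portal hypertension pool and 426.7 in the sham pool, a log2 ratio of 0.51. The probe set rc_AA874843_s_at went the other way, with 542.1 in the portal hypertension pool and 605.4 in the sham pool and a log2 ratio of -0.16. The gene value of 0.51 is therefore the middle of probe sets that disagree. When the 60th percentile, 889.84, served as floor, only AF071495_s_at kept a value. Its sham signal was then raised to the floor, so the gene value of 0.09 there is only a lower limit.

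Lcat, the enzyme that esterifies cholesterol on high-density lipoprotein, had 389.8 in the portal hypertension pool and 439.3 in the sham pool. Its log2 ratio of -0.17 lies within the SD between probe sets. Counted by probe set, 3 of the 10 above the floor in both pools were at least 1.5-fold higher, where 3.10% of 4960 probe sets were. Of these, 2 belong to Apoe, which was selected on this signal, so nothing is read from the count; without Apoe it was 1 of 8, a Scarb1 probe set. At least 1.5-fold lower were 0 of the 10, against 5.38% of all.

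**Figure D2:**
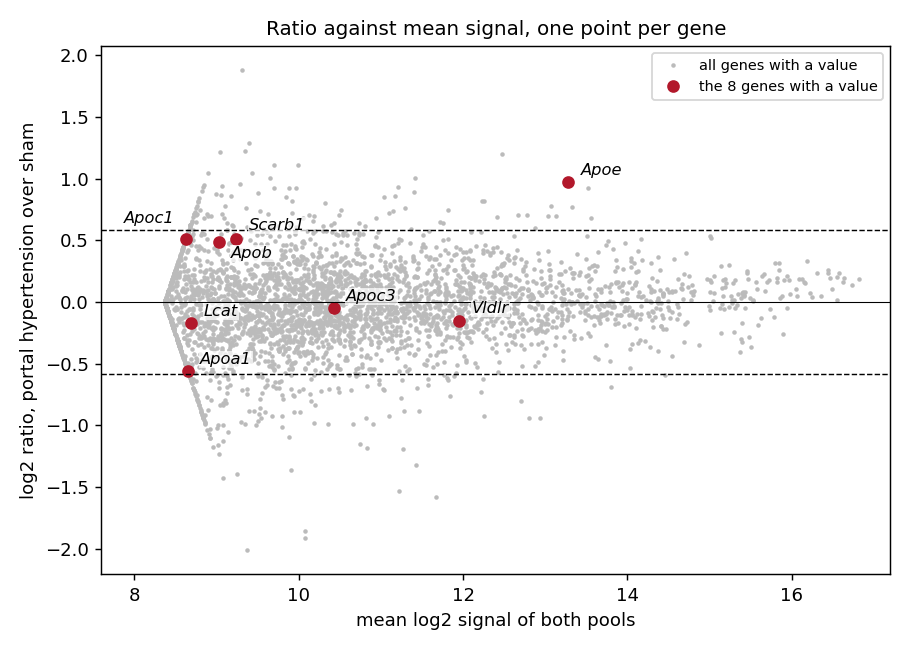
Log2 ratio of portal hypertension over sham against the mean log2 signal of both pools, 1 grey point for each of 3351 genes and red points for the 8 lipoprotein genes with a value; dashed lines mark 1.5-fold. Apoe stands at 0.97, and the wedge of points at the left is made by the floor, on whose edges Apoc1 (0.51) and Apoa1 (-0.56) lie.

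The genes nearest to Apoe in signal on both arrays were sought among the other 3049 genes with a probe set above the floor in both pools, by the Euclidean distance of log2 signals. The measure covers 2 arrays only, depends on probe brightness and by its make-up picks genes with ratios like that of Apoe, so it is a description. Nearest was Taldo1, which encodes transaldolase, at 0.15, with 13359 in the portal hypertension pool and 7838 in the sham pool. Fabp5, a fatty acid binding protein, followed at 0.29, and Postn, a matrix protein, at 0.34. Rbp4, the plasma carrier of retinol, stood at 0.36 and Mmrn1, a protein of platelets and endothelium, at 0.39.

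Other genes of lipoprotein handling moved both ways and mostly by little. Of 66 genes in 5 lists, 36 had a named probe set and 25 a value, of which 16 were above 0 and 9 below. Past 1.5-fold were 3 genes on the higher side, Apobec1, Nr1h3 and Nr2f1, and 1 on the lower side, Rxrb, where 3.13% and 5.04% of all genes were. The median log2 ratio was 0.08, against -0.02 over all genes.

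Among other apolipoprotein genes, Apobec1, the editing enzyme that recodes the Apob transcript, had 1669.6 in the portal hypertension pool and 1085 in the sham pool, a log2 ratio of 0.62. Apod, a lipocalin carried on high-density lipoprotein, had 5002 in the portal hypertension pool and 3949.5 in the sham pool. Clu, which encodes apolipoprotein J, had 55334 in the portal hypertension pool and 66369 in the sham pool, a log2 ratio of -0.26. Apoa2, Apoc4, Apoh and Apom were below the floor in both pools.

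The 5 receptor genes with a value had a median log2 ratio of -0.0044, which turned to 0.05 after quantile normalization and 0.02 after the loess. Of the 5, 0 reached 1.5-fold, where 3.13% of all genes were higher and 5.04% lower, so nothing is read from this count. Cd36, a scavenger and fatty acid receptor, had a median of 0.30 over 2 probe sets. Lrpap1, the chaperone of receptors of this family, had -0.09 over 4 probe sets that spread from -0.28 to 0.16. Lrp2 and Cubn, which take up lipoproteins in the kidney, had 0.06 and -0.0044 on their probe set above the floor in both pools.

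Of 7 genes of lipases, lipid transfer and cholesterol esterification with a named probe set, 4 had a value, 3 of them above 0. Their median log2 ratio was 0.14, and -0.04 under the 20th percentile floor, where 6 had a value. Lpl, the lipase that apolipoproteins C regulate, was higher on all 3 probe sets, with log2 ratios from 0.28 to 0.34. Lipe, the hormone-sensitive lipase, had 0.24 and Soat1, which esterifies cholesterol inside cells, 0.04. Lipa, the lysosomal lipase, had -0.03 over 3 probe sets that spread from -0.21 to 0.23. Lipc, the hepatic lipase, Pon1, an esterase of high-density lipoprotein, and Cel, a pancreatic lipase, were below the floor in both pools. Of 4 sterol transport genes with a value, Cyp27a1, which makes an oxysterol from cholesterol, had log2 ratios of 0.27 and 0.68 on its 2 probe sets, Abcb4, a phospholipid exporter, had 0.16, and Scp2, a sterol carrier, -0.0024.

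Among nuclear receptors, 2 of 9 genes with a value were at least 1.5-fold higher and 1 lower, against 3.13% and 5.04% of all genes. Both higher calls depend on the settings. Nr2f1 was no longer called under 4 of 8 settings, and Nr1h3 was under 1.5-fold with an offset of 100. Nr1h3 was also not called with the 60th percentile floor. Its sham signal was raised to that floor, so its fold there was only a lower limit. Nr1h3, the oxysterol receptor LXR alpha, which activates Apoe transcription in mouse macrophages and fat, had 1062 in the portal hypertension pool and 690.8 in the sham pool, a log2 ratio of 0.62. Its partner Rxra had 582 in the portal hypertension pool and 612.8 in the sham pool, and its close relative Nr1h2 had 2116 in the portal hypertension pool and 2187 in the sham pool. Nr2f1, an orphan receptor, had 550.6 in the portal hypertension pool and 336.6 in the sham pool, close to the floor. Pparg, the regulator of fat cell differentiation, had a log2 ratio of 0.56 and Ppard, a related receptor, 0.13. Rxrb, another partner receptor, had 200.8 in the portal hypertension pool, below the floor, and 536.7 in the sham pool, which makes it at least 1.62-fold lower. Hnf4a, which drives apolipoprotein genes in liver and gut, and Srebf1, a regulator of lipid synthesis, were below the floor in both pools on all their probe sets.

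**Figure D3:**
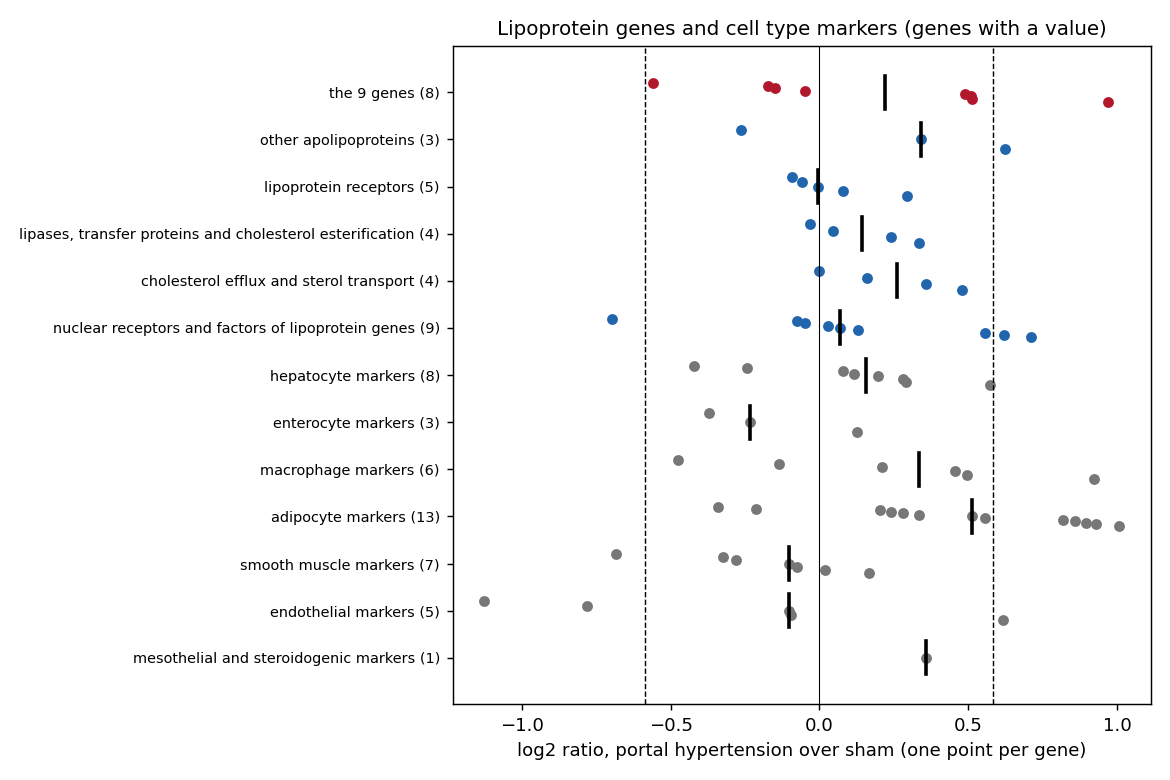
Log2 ratio of portal hypertension over sham for each gene with a value in the lipoprotein genes, the 5 other lipoprotein lists and 7 lists of cell type markers, with the number of genes in brackets, the median as a black bar and 1.5-fold as dashed lines. Adipocyte markers have the highest median of lists with several genes, 0.51, and the lipoprotein genes spread from -0.56 to 0.97. Of the 13 adipocyte markers, the 5 at least 1.5-fold higher are genes of lipid metabolism. The lists were chosen with earlier results of these data known.

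Markers of cell types that make apolipoproteins were read beside these values. Of 13 adipocyte markers with a value, 11 were above 0, with a median log2 ratio of 0.51. At least 1.5-fold higher were 5 of the 13, against 3.13% of all genes, and all 5 are genes of lipid metabolism. The list was chosen with earlier results of these data known, so nothing is read from this count. The signal of the adipocyte markers, summed over 25 probe sets above the floor in both pools, was 216388 in the portal hypertension pool and 144560.0 in the sham pool. Such sums, here and below, are weighted toward the brightest probe sets. In the portal hypertension pool the brightest here was of Scd, with 29482, against 11225 in the sham pool. Scd, the fatty acid desaturase, had a gene log2 ratio of 1.01, Acly, which supplies acetyl-CoA, 0.93, Me1, an NADPH source, 0.89 and Acsl1, which activates fatty acids, 0.86. The first 3 of these include a probe set above the floor in the portal hypertension pool only. G0s2 was also past 1.5-fold, at 0.82, while Fabp4 had 0.51, Cfd 0.28 and Fasn 0.20. The 2 markers below 0 were Lep, the hormone leptin, at -0.21 over 3 probe sets that disagreed, and Adrb3, the beta adrenergic receptor of fat cells, at -0.34, and Plin1, a lipid droplet protein, was below the floor in both pools. The list holds Lpl, Lipe and Pparg, which are counted above as well. Of 6 macrophage markers with a value, 4 were above 0, with a median of 0.33, and the summed signal over 10 probe sets was 58780.1 in the portal hypertension pool and 48251 in the sham pool. Fcgr2b, an inhibitory Fc receptor, had 0.92, Ctss, a lysosomal protease, 0.50, Aif1, a cytoskeletal protein of macrophages, 0.46 and Lyz2, lysozyme, 0.21, against Ptprc, the pan-leukocyte phosphatase, at -0.48 over 3 probe sets that disagreed and Cd14, a lipopolysaccharide receptor, at -0.14, while Csf1r, the receptor for macrophage growth factor, was below the floor. Both lists had medians above 0 with members on either side, and their part in the Apoe difference was not tested.

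Of the markers with a named probe set, 3 of 11 for hepatocytes and 5 of 8 for enterocytes lay below the floor in both pools. Of 11 hepatocyte markers with a named probe set 8 had a value, 6 of them above 0, and the summed signal over 9 probe sets was 5729 in the portal hypertension pool and 5117 in the sham pool. Alb, the albumin gene, was above the floor in both pools on 1 of its 4 probe sets, with 638.1 in the portal hypertension pool and 524.8 in the sham pool. Hp, haptoglobin, which fat also makes, had 0.57, Fga, a fibrinogen chain, 0.29 and Cps1, a urea cycle enzyme, -0.42. The others with a value were Cyp2e1 at 0.20 over 2 probe sets that disagreed, Fgg at 0.12, Ttr at 0.08 and Serpina1 at -0.24. Fgb, Ahsg and Apoh were below the floor. Of 8 enterocyte markers with a named probe set, Fabp1, Fabp2, Si, Cdh17 and Rbp2 were below the floor in both pools and 3 had a value, 1 of them above 0, with a summed signal over 6 probe sets of 5654 in the portal hypertension pool and 5839.9 in the sham pool. Anpep, a brush border peptidase that other cells also carry, had 0.13 and 0.97 and was higher in the sham pool on a probe set above the floor there only, Lct, lactase, had a median of -0.37 and Slc5a1, the glucose transporter, -0.23.

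For smooth muscle, 7 of 7 markers on the array had a value. So had 13 of 14 adipocyte markers and 6 of 7 macrophage markers, so this count does not by itself bear out the tissue label. The median of the smooth muscle markers was -0.10, with 2 above 0. Their summed signal over 13 probe sets was 497632 in the portal hypertension pool and 524695 in the sham pool. Kcnmb1, a potassium channel subunit, had -0.68, the middle of 2 probe sets that lie far apart, at -1.04 and -0.33. Acta2, the smooth muscle actin, had -0.32, Des, desmin, -0.28 and Tagln, transgelin, 0.17, which came to -0.0048 after quantile normalization. Of 7 endothelial markers on the array, 5 had a value, with a median of -0.10, while Vwf and Kdr were below the floor; their summed signal was 9818 in the portal hypertension pool and 11166 in the sham pool over 8 probe sets. Icam2, an adhesion molecule, had -1.13, Nos3, the endothelial nitric oxide synthase, -0.78 over 3 probe sets that disagreed, Edn1, the endothelin precursor, 0.62 and Pecam1, a junction protein, -0.10. Of the mesothelial and steroidogenic markers, 1 of 5 had a value, Star, a cholesterol carrier of mitochondria, which was above the floor in the portal hypertension pool only.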

How the data were processed

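Expression was measured in 2 pools of RNA on 1 array each. The signal intensity values were used as deposited: 1 linear value per probe set and array. How the authors scaled and background-corrected them, and with which software, is not given in the sources used here. Column means without the lowest and highest 2% of values were 2504.38 in the portal hypertension pool and 2504.33 in the sham pool, so a common scaling had already been done. Per the file headers, both arrays were RG_U34A chips, on fluidics module 1 with 12.5 µg of labelled cRNA for portal hypertension and on module 2 with 17 µg for sham (both amounts noted with a question mark), so these cannot be told apart from the operation. These header entries, of other units than intensity, were deposited by the authors as instrument records.

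Control probe sets (59) were set aside, the floor was the 40th percentile of the other 8740, and 7018 probe sets with 1 gene symbol named 4736 genes. RefSeq changed 0 symbols. The array has no named genome build, so no gene coordinates are given; promoter windows carry those of GRCr8. Changes were counted at 1.5-fold. The text names the 9 genes and the 5 genes nearest to Apoe. It also names up to 4 genes per list with the largest absolute ratio among those above the floor in both pools. Genes below the floor, those past 1.5-fold and the relatives Rxra and Nr1h2 were named in addition after their values were seen. So were the markers Lep, Adrb3, Fabp4, Cfd, Fasn, Ttr, Serpina1, Fgg, Cyp2e1, Lyz2 and Cd14. The members and lists were chosen with earlier results of these data known. Calculations used Python 3.11.15, pandas 2.3.3 and statsmodels 0.14.6 (loess span 0.4) and were tested on simulated data. The simulation had less noise than these arrays and changed only genes well above the floor. It checks the calculation and does not cover genes near the floor.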

Additional observations from a re-analysis of the deposited data

How the results depend on the processing

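8 alternative settings were tried, each changing 1 choice. The Apoe ratio stayed above 1.5-fold under all 8. Both of its probe sets lie far above every floor tried, so changing the floor could not move it. All settings reuse the values that Apoe was selected on, so this supports nothing. Under a floor at the 20th percentile, 2 of the 9 genes were at least 1.5-fold higher (Apoe and Apoa4, Apoa4 at a log2 ratio of 0.69) and 1 lower (Apoa1). Of all 4193 genes with a value there, 7.15% were higher and 7.97% lower. With the brightest probe set of each gene 2 of the 9 were higher (Apoe and Scarb1), against 3.22% of all genes. Of the other lipoprotein genes, 6 were at least 1.5-fold higher under the 20th percentile floor. Under the 60th percentile floor 1 was higher, where 1.94% of 2324 genes were. Lower were 0 under the 60th percentile floor or with probe sets above the floor in both pools only, because Rxrb drops out. Of all genes, 2.75% and 4.3% were lower under these 2 settings. With no floor and an offset of 100 the count was again 3 higher, but of other genes: Apoa2, Nr1h4 and Star passed 1.5-fold, and Apobec1, Nr1h3 and Nr2f1 did not. Over all genes, 300 were higher and 334 lower under the 20th percentile floor, and 45 higher and 64 lower under the 60th. With that offset 212 were higher and 235 lower, or 4.48% and 4.96% of 4736 genes. The counts of the lists rest on few genes and are not read further. With that offset, under which all their probe sets enter, Apob was at 0.04 and Apoa1 at -0.25. Scarb1 was at 0.09 under the 60th percentile floor, a lower limit because its sham signal was raised to that floor. The median of the genes without Apoe was above 0 under 4 of the 8 settings, from 0.06 to 0.23. Lipa and Cubn turned to 0.0085 and 0.049 after quantile normalization and to 0.0013 and 0.024 after the loess. Apoc3 was above 0 under 2 of 8 settings. Low signal limits Apoc1, Apob, Apoa1, Apoa4, Scarb1 and Lcat, whose values lie near the floor. No paired analysis was possible because each group has 1 array.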
